A study of Mus musculus with 9 samples.

Results

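The enzymes described here are the 3 of the serine synthesis pathway (Phgdh, Psat1 and Psph) and 7 that pass one-carbon units through folate, of which Shmt1, Mthfd1 and Aldh1l1 form the cytosolic arm and Shmt2, Mthfd2, Mthfd1l and Aldh1l2 the mitochondrial arm. All 10 were found by gene symbol among the 54532 genes of the deposited tables. They were measured by poly A RNA sequencing in 9 libraries of 3T3-L1, an established mouse fibroblast line that can be turned into adipocytes. Undifferentiated cells (n = 3) were held at confluence for 3 days. Differentiated cells (n = 3) were then given 10 μg/mL insulin, 1 μM rosiglitazone, 0.5 mM of the phosphodiesterase inhibitor IBMX and 1 μM dexamethasone, and Lysfree cells (n = 3) received the same inducers in medium to which no lysine had been added. Per the study's methods, RNA of differentiated cells was taken once the differentiation period was over. Cells at confluence were kept in DMEM with calf serum (BCS), and both induced groups in a different DMEM with FBS. Base medium and serum thus changed together with the inducers, and so did time in culture if Undifferentiated cells were taken before induction. The parts of these cannot be told apart in the comparisons with Undifferentiated cells. Nothing in the labels says that the 3 libraries of a group came from separate cultures, so the p-values measure the spread between these libraries, which may be technical.

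Serine is made from the glycolytic intermediate 3-phosphoglycerate in 3 steps, by the dehydrogenase Phgdh, the aminotransferase Psat1 and the phosphatase Psph. Serine hydroxymethyltransferases then split it into glycine and a one-carbon unit held by tetrahydrofolate. In the usual direction of the cycle the mitochondrial enzymes oxidize this unit and release formate, and the cytosolic enzymes load the formate back onto folate for the synthesis of purines, thymidylate and methionine. The serine pathway and several mitochondrial enzymes are well-known targets of ATF4, the transcription factor that amino acid shortage activates through its translation.

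Total counts ranged from 15880144 to 21806693 per library. Lysfree 1 stood apart from the other Lysfree libraries, with a correlation of log2 CPM across genes of at most 0.978 against at least 0.988 for the other pairs within a group, and values without it are given for the genes named where it decides a call or a direction. The 8 adipocyte markers checked summed to 4618 to 4936 FPKM in Differentiated libraries but to 291 to 358 in Undifferentiated and 285 to 398 in Lysfree libraries, so the Lysfree cells, labelled as differentiated, lacked the high sum of that group. They were not like Undifferentiated cells in each marker, since the adipocyte hormone gene Adipoq (log2 fold change -3.74) and the adipocyte factor Cebpa (-1.43) were lower and the fatty acid receptor Cd36 (2.18) was higher in Lysfree vs. Undifferentiated. The 7 preadipocyte or fibroblast markers summed to 3783 to 4200 FPKM in Undifferentiated, 685 to 717 in Differentiated and 1608 to 1694 in Lysfree libraries. In Lysfree vs. Undifferentiated, 4 of the 7 were at least 2-fold lower and 0 higher at an adjusted p under 0.05 in edgeR, where 8.76% of all genes were lower. Of the markers of other cell types, Adgre1 (macrophage), Epcam (epithelial) and Myod1 and Myf5 (muscle) were at 0 in all 9 libraries, but other genes of these lists were not. The 5 macrophage or leukocyte markers summed to 17.3 to 21.0 FPKM in Undifferentiated, 5.59 to 5.72 in Differentiated and 8.02 to 9.32 in Lysfree libraries, and Lyz2 fell in Differentiated vs. Undifferentiated (-4.24). The 4 muscle markers summed to at most 3.98 FPKM, nearly all of it Des, the 4 epithelial markers to at most 1.72 and the 4 endothelial markers to at most 0.272. Krt8 (3.62) and Krt18 (3.21) rose in Differentiated vs. Undifferentiated, from at most 7 to at most 30 counts per library. The part of these genes in the results was not tested. In bulk RNA, fewer cells of a type and less RNA per cell cannot be told apart.

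The promoters of the enzymes were read in the RefSeq table for GRCm38.p6, whose windows run from 250 bases before to 50 bases after a gene's start. It held 10 windows for 9 of the 10 enzymes (2 for Psat1), all but Aldh1l2. The sequences below are the 100 bases before the start, on the gene's strand, of Psat1 and Mthfd2, the 2 members whose levels followed each other most closely, and of the serine hydroxymethyltransferase pair, whose levels parted in Lysfree cells. Capitals mark CCAAT or its reverse complement ATTGG, the letters known from promoters bound by the factor NF-Y. All 4 genes lie on the minus strand. The RefSeq starts of Psat1, Mthfd2 and Shmt1 lie inside the genes as the deposited tables delimit them, downstream of the outermost annotated start, so these are not the only possible promoters of the genes.

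Psat1, chr19:15925060-15925159: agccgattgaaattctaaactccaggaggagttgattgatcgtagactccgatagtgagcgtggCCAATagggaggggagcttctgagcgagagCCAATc
Mthfd2, chr6:83317605-83317704: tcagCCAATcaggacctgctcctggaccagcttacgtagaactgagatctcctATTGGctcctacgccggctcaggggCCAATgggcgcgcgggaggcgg
Shmt1, chr11:60811266-60811365: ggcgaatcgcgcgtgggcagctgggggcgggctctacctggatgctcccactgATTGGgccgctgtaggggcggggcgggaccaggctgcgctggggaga
Shmt2, chr10:127522445-127522544: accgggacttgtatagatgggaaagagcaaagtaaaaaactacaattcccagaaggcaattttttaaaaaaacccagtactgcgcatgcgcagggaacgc

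CCAAT stood on either strand in 7 of the 10 windows, those of 7 of the 9 enzymes, and in 37.4% of all 32851 windows of the table. It was absent from the windows of Shmt2 and Mthfd1l and from the second window of Psat1. This motif was added after the sequences had been read. The other motifs were the letters of known elements. The C/EBP-ATF element TGATGNAA (3.97% of all windows), the cAMP response element TGACGTCA (1.79%) and the E-box CACGTG (7.15%) had no match in the 10 windows. The antioxidant response element core TGACNNNGC was found in 2 of the 10, those of Phgdh and Psph, and in 12.4% of all windows. Both strands were searched for each motif, and the windows do not cover introns or distant elements.

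Gene positions below are those of the deposited tables on GRCm38. Levels are given as the authors' FPKM (counts per length of gene and per sequenced total), which allow a rough comparison between genes. The length is a single value per gene, whichever of its transcripts are expressed. Rankings, sums and ratios across genes depend on it. In Undifferentiated cells, Phgdh had the highest mean level of the 10 enzymes, at 111 FPKM, and ranked 390 among 22098 genes above 0. It was followed by Psat1 (60.9), Shmt2 (45.3), Aldh1l2 (38.1) and Mthfd2 (32.1), then by Mthfd1 (16.5). Mthfd1l (7.75), Psph (6.47), Shmt1 (6.15) and Aldh1l1 (0.0593) were the lowest, and the ranges of Psph and Shmt1 overlapped. In Differentiated cells, Psat1 led with 194 FPKM, ahead of Phgdh at 155. In Lysfree cells, Phgdh (145) and Psat1 (144) had nearly equal means and overlapping ranges.

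**Figure D1:**
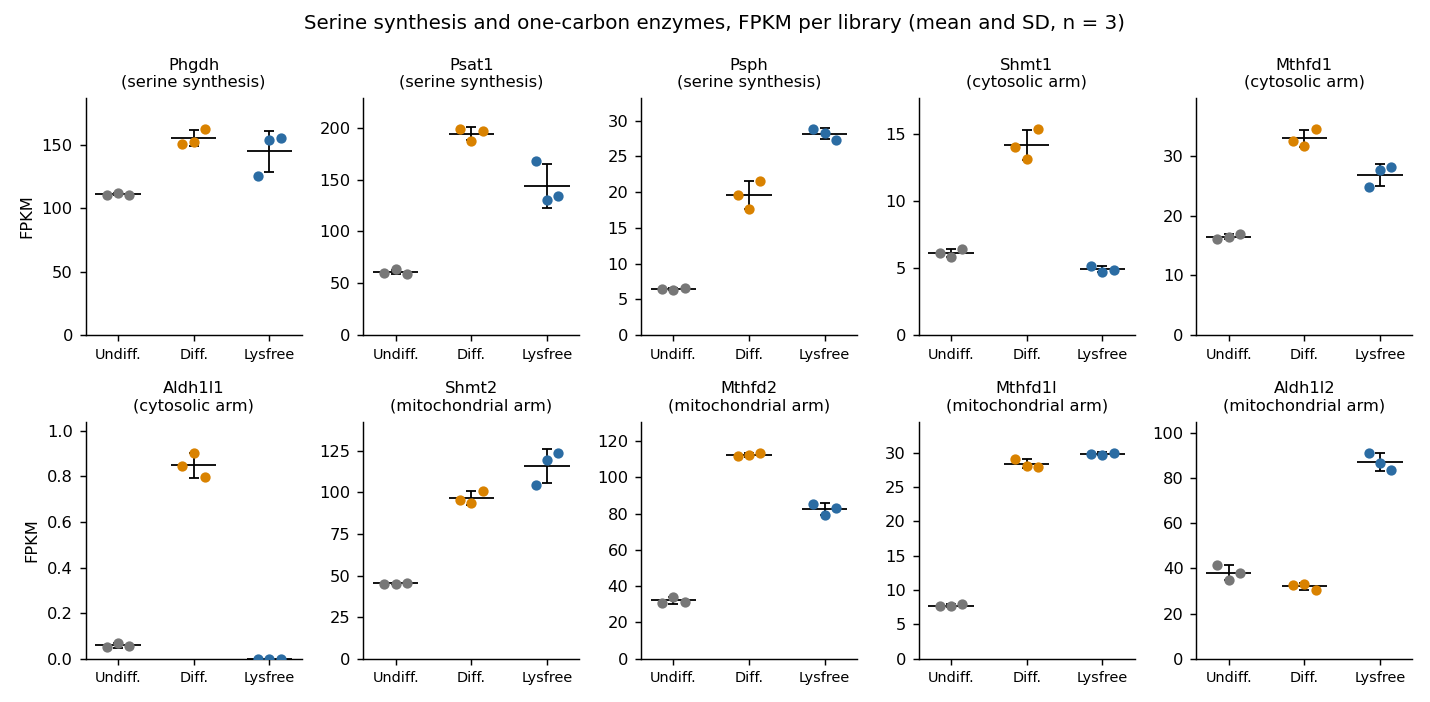
FPKM (vertical axes, linear, starting at 0) of the 10 enzymes in each library, with the group mean (line) and SD (bars) over 3 libraries of Undifferentiated (grey), Differentiated (orange) and Lysfree (blue) cells. Shmt1 and Aldh1l1 were high in Differentiated cells alone, while Aldh1l2 was highest in Lysfree cells.

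To see which enzymes differed between induced and uninduced cells, Differentiated cells were compared with Undifferentiated cells. A DEG had an adjusted p under 0.05 and a change of at least 2-fold in edgeR's quasi-likelihood test. Of the 10 enzymes, 7 were DEGs and all 7 were higher, against 21.8% of the 24402 genes tested that were DEGs in either direction and 10.4% that were higher. Shares of all genes, here and in the other paragraphs, include many genes with few counts, which reach a call less easily. In this comparison 13869 genes passed edgeR's expression filter. No share is given over such genes, and it may be higher. The median log2 fold change was 1.38 over the enzymes and 0.02 over all genes tested. The groups did not overlap for any of the 10 enzymes, 9 of them higher and 1 lower, where 50.9% of all genes tested did not overlap (26.2% higher and 24.7% lower). At an adjusted p under 0.05 with no fold threshold, all 10 enzymes and 46.1% of all genes differed.

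In Lysfree cells compared with Undifferentiated cells, 7 of the 10 enzymes were again DEGs, 6 higher and 1 lower, while 14.3% of 23994 genes were DEGs, 5.52% higher and 8.76% lower. The median log2 fold change was 1.26 over the enzymes and -0.02 over all genes tested. At an adjusted p under 0.05 with no fold threshold, 9 of the 10 enzymes and 35.1% of all genes differed. FPKM was separate between these groups for all 10 enzymes, 8 higher and 2 lower, against 43.5% of all genes (20.2% higher and 23.2% lower). Both comparisons share the Undifferentiated libraries.

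In Lysfree cells compared with Differentiated cells, 3 enzymes were DEGs. Aldh1l2 was higher, and Shmt1 and Aldh1l1 were lower. Of 24130 genes tested, 18.7% were DEGs, 8.14% higher and 10.5% lower. The median log2 fold change was -0.13 over the enzymes and -0.06 over all genes tested. At an adjusted p under 0.05 with no fold threshold, 7 of the 10 enzymes and 38.5% of all genes differed. FPKM did not overlap for 9 enzymes, 4 higher and 5 lower, and for 46.6% of all genes (21.3% higher and 25.3% lower).

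**Figure D2:**
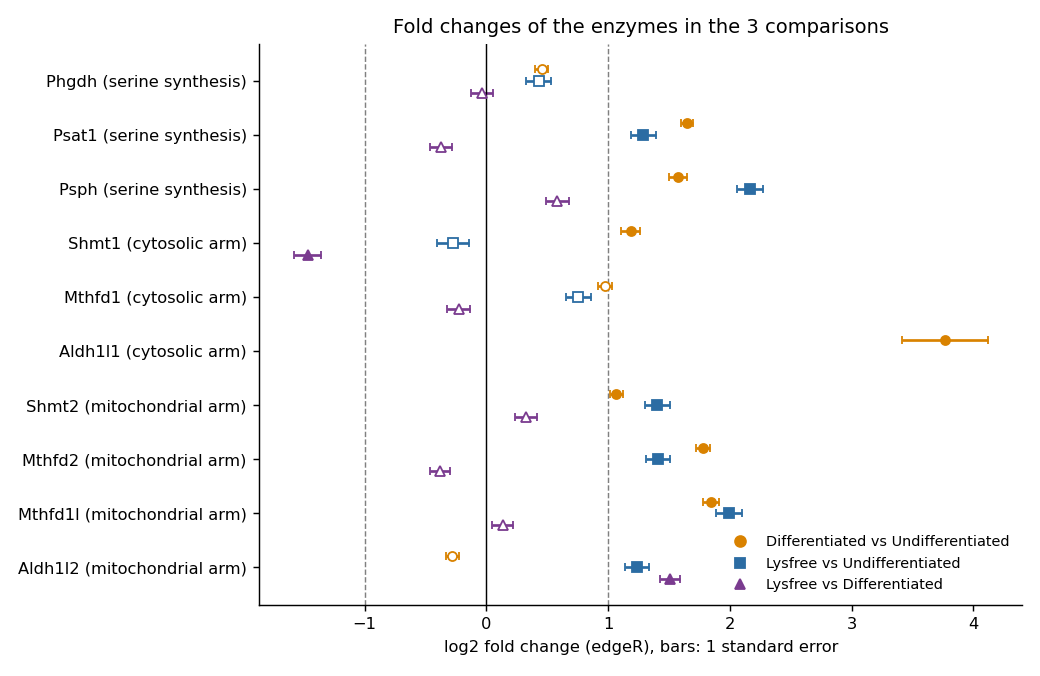
Log2 fold change from edgeR (horizontal axis) of each enzyme in Differentiated vs. Undifferentiated (orange circles), Lysfree vs. Undifferentiated (blue squares) and Lysfree vs. Differentiated (purple triangles), with 1 standard error. Filled symbols are DEGs and dashed lines mark a 2-fold change. Aldh1l1 is drawn for the first comparison alone because its Lysfree libraries were at 0. The purple triangles of Shmt1 and Aldh1l2 lie on opposite sides of 0.

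Phgdh (chr3:98313170-98339990, minus strand), which catalyses the first and committed step of serine synthesis, changed least of the 3 pathway enzymes between Differentiated and Undifferentiated cells. Its FPKM was 111, 112 and 111 in Undifferentiated, 151, 152 and 162 in Differentiated, and 126, 153 and 155 in Lysfree libraries. The Undifferentiated libraries were the lowest, and Lysfree 1 lay between them and the others. The log2 fold change was 0.45 (SE 0.05) in Differentiated vs. Undifferentiated and 0.43 (SE 0.10) in Lysfree vs. Undifferentiated, with adjusted p of 1.05e-17 and 7.37e-04 in edgeR, both under the 2-fold threshold. Lysfree and Differentiated cells overlapped, with a log2 fold change of -0.03 (SE 0.09, edgeR's adjusted p = 0.787). Without Lysfree 1 this difference was 0.04. The pseudogene Phgdh-ps1 held 1 to 17 counts per library.

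Psat1 (chr19:15904678-15947337, minus strand), the aminotransferase of the second step, had 59.7, 63.6 and 59.4 FPKM in Undifferentiated, 199, 188 and 197 in Differentiated, and 168, 130 and 134 in Lysfree libraries. The 3 groups did not overlap, and Differentiated cells were the highest. It rose with a log2 fold change of 1.65 (SE 0.05, edgeR's adjusted p = 1.41e-228) in Differentiated and 1.29 (SE 0.10, adjusted p = 2.53e-12) in Lysfree cells over Undifferentiated cells. It was lower in Lysfree than in Differentiated cells by less than 2-fold, at -0.37 (SE 0.09, edgeR's adjusted p = 0.00221), and at -0.51 without Lysfree 1, the library with the highest value.

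Psph (chr5:129765558-129787449, minus strand), the phosphatase of the last step, showed the largest rise of the 3 in Lysfree cells. It had 6.50, 6.31 and 6.59 FPKM in Undifferentiated, 19.6, 17.7 and 21.6 in Differentiated, and 28.8, 28.3 and 27.3 in Lysfree libraries. Each group lay above the one before it without overlap. Log2 fold changes were 1.57 (SE 0.07) in Differentiated and 2.17 (SE 0.11) in Lysfree cells over Undifferentiated cells, and 0.58 (SE 0.10, edgeR's adjusted p = 3.22e-05) in Lysfree vs. Differentiated. Psph shares 452 exonic bases, 10.4% of its length, with the chaperonin subunit gene Cct6a on the opposite strand. Cct6a moved in the same direction, with log2 fold changes of 1.06, 1.93 and 0.86 in the 3 comparisons. Whether counting used strand was not given in the sources used here, and the part of Cct6a in the Psph values was not tested.

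Psat1 thus had 0.537 to 0.568 times the FPKM of Phgdh in Undifferentiated libraries and 1.21 to 1.32 times in Differentiated libraries. In Lysfree libraries the ratio was 1.34 in Lysfree 1 and 0.848 and 0.864 in the others, on either side of the Differentiated range.

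Shmt1 (chr11:60788104-60811718, minus strand), the cytosolic serine hydroxymethyltransferase, was high in Differentiated cells alone. It had 6.13, 5.87 and 6.45 FPKM in Undifferentiated, 14.1, 13.2 and 15.4 in Differentiated, and 5.17, 4.71 and 4.88 in Lysfree libraries. The lowest Differentiated library had more than double the FPKM of the highest Lysfree library. The log2 fold change was 1.19 (SE 0.08, edgeR's adjusted p = 2.04e-48) in Differentiated vs. Undifferentiated and -1.47 (SE 0.11, adjusted p = 6.68e-10) in Lysfree vs. Differentiated. Lysfree and Undifferentiated cells differed by -0.27 (SE 0.13, edgeR's adjusted p = 0.111), and the adjusted p was 0.00547 without Lysfree 1. Its neighbour Smcr8 shares 184 exonic bases with it on the opposite strand and moved the other way in these comparisons, with -0.36 in Differentiated vs. Undifferentiated and 0.83 in Lysfree vs. Differentiated.

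Mthfd1 (chr12:76255298-76319803, plus strand), the cytosolic enzyme with 3 activities that loads formate onto folate, had 16.1, 16.4 and 16.9 FPKM in Undifferentiated, 32.6, 31.8 and 34.6 in Differentiated, and 24.8, 27.7 and 28.2 in Lysfree libraries. Lysfree cells lay between the other groups without overlap. Its log2 fold change in Differentiated vs. Undifferentiated was 0.97 (SE 0.06), just under the threshold, and it came to 1.00 when Differentiated 2 or Undifferentiated 3 was left out. In Lysfree vs. Undifferentiated it was 0.75 (SE 0.10, edgeR's adjusted p = 2.31e-07). In Lysfree vs. Differentiated it was -0.23 (SE 0.09, edgeR's adjusted p = 0.0538, and 2.31e-04 without Lysfree 1).

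Aldh1l1 (chr6:90486427-90600203, plus strand), the cytosolic 10-formyltetrahydrofolate dehydrogenase, which takes one-carbon units out of the folate pool as carbon dioxide, was the rarest of the enzymes. It had 5, 7 and 4 counts in Undifferentiated, 59, 76 and 58 in Differentiated, and 0 in each Lysfree library. Each library with a count of 0 allows up to 3 counts, or 0.159 to 0.177 CPM. The log2 fold change in Differentiated vs. Undifferentiated was 3.77 (SE 0.35, edgeR's adjusted p = 4.16e-26). With 3 counts per library as the floor, Aldh1l1 was at least 22.9-fold lower in Lysfree than in Differentiated cells and at least 1.63-fold lower than in Undifferentiated cells. These bounds cover counting error on the Lysfree side only. The other group entered at its observed mean, which in Undifferentiated cells rests on 4 to 7 counts per library. Its call as a DEG in Lysfree vs. Undifferentiated (edgeR's adjusted p = 0.00856) rests on 4 to 7 counts against 0, and it was lost in edgeR's test against a 2-fold change (adjusted p = 0.0559).

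The adipocyte markers and most proliferation genes were, like Shmt1 and Aldh1l1, higher in Differentiated cells than in both other groups, where Psat1, Mthfd1 and Mthfd2 also had their highest levels. All 8 adipocyte markers rose in Differentiated vs. Undifferentiated and all 8 fell in Lysfree vs. Differentiated. Of 18 proliferation genes, 12 rose in the first comparison, where 10.4% of all genes did. In the second, 11 fell and 1 rose, against 10.5% and 8.14% of all genes. The 18 summed to 139 to 140 FPKM in Undifferentiated, 321 to 336 in Differentiated and 176 to 184 in Lysfree libraries. The part of either list in the levels of these enzymes was not tested.

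Shmt2 (chr10:127517123-127522444, minus strand), the mitochondrial serine hydroxymethyltransferase, was higher in both induced groups. It had 45.2, 44.9 and 45.8 FPKM in Undifferentiated, 95.5, 93.4 and 101 in Differentiated, and 104, 120 and 124 in Lysfree libraries. No groups overlapped, and Lysfree 1 was the closest of its group to the Differentiated libraries. Shmt2 rose with a log2 fold change of 1.07 (SE 0.05) in Differentiated and 1.40 (SE 0.10) in Lysfree cells over Undifferentiated cells, with adjusted p of 6.00e-84 and 2.03e-13 in edgeR. The first of these was not a DEG when edgeR tested against a 2-fold change rather than against none (adjusted p = 0.185). Lysfree vs. Differentiated gave 0.33 (SE 0.09, edgeR's adjusted p = 0.00509).

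Mthfd2 (chr6:83305691-83325908, minus strand), the mitochondrial dehydrogenase and cyclohydrolase, had 30.8, 34.1 and 31.4 FPKM in Undifferentiated, 112, 112 and 114 in Differentiated, and 85.4, 79.1 and 82.9 in Lysfree libraries. Lysfree cells fell between the other groups. Mthfd2 rose with a log2 fold change of 1.78 (SE 0.06, edgeR's adjusted p = 2.03e-226) in Differentiated and 1.41 (SE 0.10, adjusted p = 1.26e-13) in Lysfree cells over Undifferentiated cells, and it was lower, at -0.38 (SE 0.08, adjusted p = 5.38e-04), in Lysfree vs. Differentiated.

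Mthfd1l (chr10:3973118-4167081, plus strand), the mitochondrial synthetase that frees formate from folate, rose by the largest factor of the mitochondrial arm. It had 7.62, 7.64 and 7.98 FPKM in Undifferentiated, 29.1, 28.1 and 28.0 in Differentiated, and 29.9, 29.6 and 30.0 in Lysfree libraries. Both induced groups lay far above Undifferentiated cells and close to each other. Over Undifferentiated cells the log2 fold change was 1.85 (SE 0.07) and 1.99 (SE 0.10), and it was 0.14 (SE 0.09, edgeR's adjusted p = 0.249, and 0.0380 without Lysfree 1) in Lysfree vs. Differentiated.

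Aldh1l2 (chr10:83487450-83534140, minus strand), the mitochondrial counterpart of Aldh1l1 and a source of NADPH, was the member that rose in Lysfree cells without having risen in Differentiated cells. It had 41.6, 34.8 and 37.9 FPKM in Undifferentiated, 32.5, 33.3 and 30.3 in Differentiated, and 91.2, 86.6 and 83.5 in Lysfree libraries. The lowest Lysfree library had over double the FPKM of the highest of the other 6. The log2 fold change was -0.28 (SE 0.05, edgeR's adjusted p = 4.46e-07) in Differentiated vs. Undifferentiated, 1.24 (SE 0.10, adjusted p = 1.91e-12) in Lysfree vs. Undifferentiated and 1.51 (SE 0.08, adjusted p = 3.70e-12) in Lysfree vs. Differentiated. D10Wsu102e, which shares 1056 exonic bases (14.1% of the length of Aldh1l2) on the opposite strand, changed by 0.80, 0.73 and -0.08 in these comparisons and held at most 1394 counts in a library.

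The 2 arms were then set against each other within each library, by the summed FPKM of their enzymes. The mitochondrial arm summed to 123 ± 1.87 FPKM (SD, n = 3) in Undifferentiated, 269 ± 3.08 in Differentiated and 315 ± 4.82 in Lysfree cells. The cytosolic arm summed to 22.7 ± 0.629, 48.1 ± 2.50 and 31.8 ± 1.63. Both arms were more abundant in Differentiated than in Undifferentiated cells. In Lysfree cells the mitochondrial sum was the highest of the 3 groups while the cytosolic sum lay between the other groups. The excess of the mitochondrial sum over Differentiated cells rested on Aldh1l2, with means of 87.1 FPKM in Lysfree and 32.0 in Differentiated cells. Shmt2 (116 and 96.7) and Mthfd1l (29.8 and 28.4) were also higher in Lysfree cells, but Mthfd2 (82.5 and 112) was lower. Without Aldh1l2, the mean sum was lower in Lysfree than in Differentiated cells.

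The ratio of the mitochondrial to the cytosolic sum was 5.62, 5.43 and 5.25 in Undifferentiated, 5.65, 5.82 and 5.37 in Differentiated, and 10.4, 9.70 and 9.68 in Lysfree libraries. Differentiated and Undifferentiated cells overlapped, and all Lysfree libraries lay above both. On the log2 scale, the mean ratio of Lysfree cells exceeded that of Undifferentiated cells by 0.87 and that of Differentiated cells by 0.82, where the SD within groups was 0.05 to 0.06. The ratio in Differentiated cells exceeded that in Undifferentiated cells by 0.05. This small difference depended on what was summed. It was 0.42 without Aldh1l1 and Aldh1l2, -0.19 with CPM in place of FPKM, and -0.46 for the mean of log2(FPKM + 0.1) per arm, whereas the excess in Lysfree cells stayed between 0.51 and 2.01 over Differentiated and between 0.81 and 1.55 over Undifferentiated cells under the same choices. No test was made on these sums over members.

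**Figure D3:**
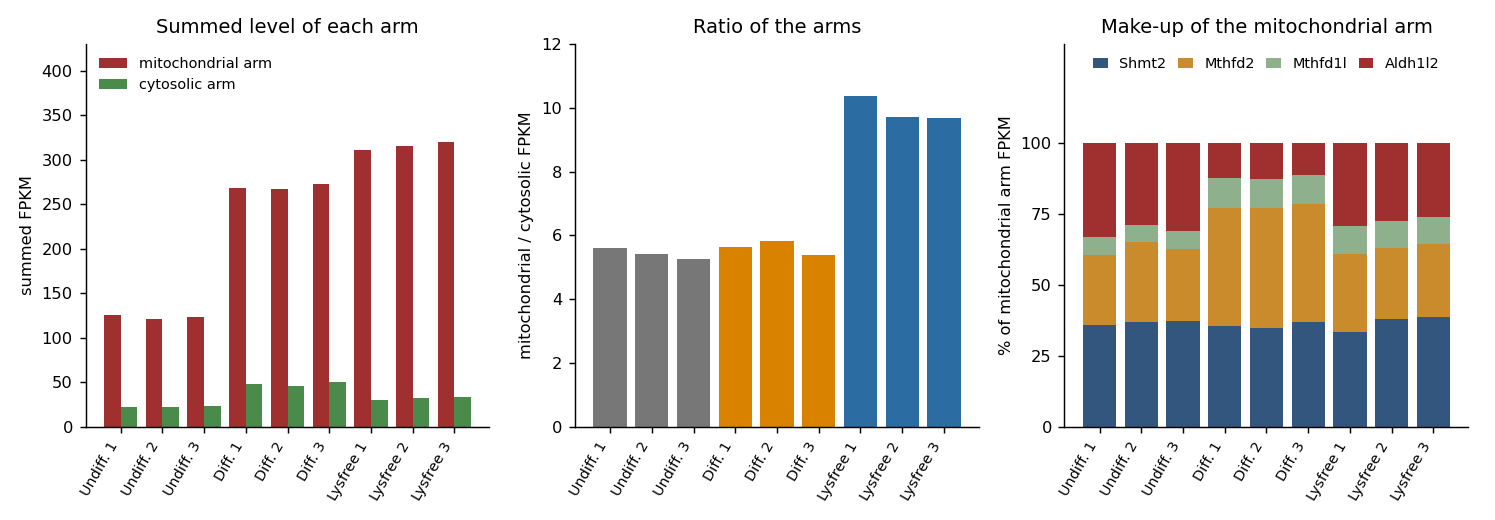
Left, summed FPKM of the mitochondrial (red) and cytosolic (green) enzymes in each library. Middle, the ratio of the 2 sums, 5.25 to 5.82 in the Undifferentiated and Differentiated libraries and 9.68 to 10.4 in the Lysfree libraries. Right, the percentage of the mitochondrial sum held by each enzyme, in which Aldh1l2 holds 11.1 to 12.5% in Differentiated libraries and at least 26.1% in the others.

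Within the mitochondrial arm, Shmt2 held a similar share in all groups, 36.7 ± 0.598% in Undifferentiated, 35.9 ± 1.06% in Differentiated and 36.7 ± 2.79% in Lysfree cells. Mthfd2 and Aldh1l2 traded places. Mthfd2 held 26.1 ± 1.80%, 41.7 ± 0.267% and 26.2 ± 1.22% of the sum, and Aldh1l2 held 30.9 ± 2.29%, 11.9 ± 0.705% and 27.6 ± 1.64%. The make-up of the arm in Lysfree cells therefore resembled that of Undifferentiated cells at a higher total, except for Mthfd1l, whose share was 6.29 ± 0.202% in Undifferentiated and 9.46 ± 0.132% in Lysfree cells.

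Enzymes that act on the same step in the 2 compartments were compared as ratios within a library. Shmt2 exceeded Shmt1 by 7.10 to 7.65 times in Undifferentiated, 6.56 to 7.08 times in Differentiated and 20.1 to 25.4 times in Lysfree libraries, and it made up 95.3 to 96.2% of the summed FPKM of the pair in Lysfree cells. Mthfd1l had 0.465 to 0.473 times the FPKM of Mthfd1 in Undifferentiated, 0.809 to 0.893 times in Differentiated and 1.06 to 1.20 times in Lysfree libraries. By FPKM, the mitochondrial gene thus passed the cytosolic one in Lysfree cells. Mthfd2 exceeded Mthfd1 by 1.85 to 2.08, 3.28 to 3.53 and 2.85 to 3.44 times, and here the Differentiated and Lysfree ranges overlapped. Of 12 planned comparisons (4 pairs in 3 comparisons), 10 had a ratio, since Aldh1l1 was at 0 in Lysfree cells, and 9 of the 10 did not overlap between groups. The exact two-sided permutation test gave p = 0.1 for these 9, the smallest that 3 against 3 libraries can give, and p = 0.3 for Mthfd2 to Mthfd1 in Lysfree vs. Differentiated (adjusted p = 0.111 and 0.3). Of all single genes, 43.5 to 50.9% did not overlap in the 3 comparisons, and no share was taken over ratios of other genes. The 10 ratios are not separate results, as they share libraries and 2 of the pairs share Mthfd1.

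The members whose levels followed each other most closely across the 9 libraries were Psat1 and Mthfd2, which stand in different pathways and compartments. The root mean square difference of their log2 CPM, each centred on its own mean, was 0.10. Psph and Mthfd1l came next, at 0.20. Among all 14264 genes with enough counts, the 5 most like Mthfd2 were Nomo1, Ifrd2, Slc19a1 (the reduced folate carrier of the plasma membrane), Akr1b3 and Psat1, at 0.08 to 0.10. Phgdh was most like Pcna, the DNA polymerase clamp, Ppp1r8, Vars, AL805899.1 and Ube2m, at 0.04 to 0.06. For Aldh1l2 these were Thbd, Tnfaip2, Itfg2, Tnfaip1 and Abcc4, at 0.06 to 0.09. Shmt2 was closest to Med8, Ciapin1, Mphosph10, Dkc1 and Tars2 (0.06 to 0.08), and Mthfd1 to Mrpl16, Dnaja3, Tle1, Ube2f and Psmd11 (0.06 to 0.07). Aldh1l1 had no match as close, but this distance grows with a gene's own range and count noise, and Aldh1l1 held 0 to 76 counts per library. The nearest genes, Ybx2, Sctr, Adipoq, Pdzd2 and Mc2r, were at 0.25 to 0.35, and they include the adipocyte hormone adiponectin. All these distances are descriptions over 9 libraries in 3 groups.

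The genes around these enzymes were taken from a list of 51 assigned to folate uptake and interconversion, nucleotide synthesis, glycine cleavage, the methionine cycle, transsulfuration and serine and glycine transport. A place in the list is not evidence that a gene's protein carries out a step of the pathway. In Differentiated vs. Undifferentiated, 14 of the 47 tested (29.8%) were DEGs, 8 higher and 6 lower, against 21.8% of all genes. In Lysfree vs. Undifferentiated, 19 of 47 (40.4%) were DEGs, 11 higher and 8 lower, against 14.3% of all genes. In Lysfree vs. Differentiated, 9 of 46 (19.6%) were DEGs, 5 higher and 4 lower, a share near the 18.7% of all genes. As for the enzymes, the shares of all genes include many genes with few counts, and no share is given over well-counted genes. The medians of the log2 fold change were 0.04, 0.54 and 0.15, against 0.02, -0.02 and -0.06 over all genes tested.

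Among the genes of folate uptake, storage and reduction, Slc19a1 made the largest rise in both comparisons with Undifferentiated cells. Its mean was 5.90 FPKM in Undifferentiated, 19.0 in Differentiated and 14.5 in Lysfree cells, with log2 fold changes of 1.66 (SE 0.07) and 1.35 (SE 0.11). Slc25a32, the mitochondrial folate carrier, had 8.56, 7.64 and 11.7 FPKM and was no DEG, with 0.67 (SE 0.12) in Lysfree vs. Differentiated. The largest falls were those of Ggh, a folate hydrolase, in Differentiated (-1.54, SE 0.12) and of Slc46a1, the proton-coupled folate transporter, in Lysfree cells (-1.42, SE 0.26, from 26 to 43 counts per Lysfree library), both over Undifferentiated cells.

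Mthfd2l, the paralog of Mthfd2 in mitochondria, did not follow it. It had 2.82 FPKM in Undifferentiated, 1.79 in Differentiated and 1.91 in Lysfree cells, and its log2 fold changes over Undifferentiated cells were -0.68 (SE 0.11) and -0.52 (SE 0.15), under 2-fold. Mthfsd, placed in the same list, fell in Lysfree cells, by -1.25 (SE 0.15) over Undifferentiated and -1.08 (SE 0.14) over Differentiated cells. Whether its protein acts on folate was not tested.

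Of 7 genes of purine and thymidylate synthesis, not all of which take up folate carbon themselves, none was a DEG in Differentiated vs. Undifferentiated. All 7 had an adjusted p under 0.05 in edgeR there, with log2 fold changes of -0.41 to 0.97. As DEGs, 2 rose in Lysfree vs. Undifferentiated. Atic, which carries out the last 2 steps of purine synthesis with a folate-borne carbon, rose most, from 15.2 FPKM in Undifferentiated and 21.4 in Differentiated to 47.0 in Lysfree cells (1.67, SE 0.10, and 1.20, SE 0.09). Tyms, the thymidylate synthase, had 2.75, 4.82 and 3.86 FPKM and was no DEG. The glycine cleavage enzyme Gldc was near the limit of detection, with 5 to 24 counts per library. Dld, a subunit that glycine cleavage shares with the pyruvate and other dehydrogenase complexes, had 35.7, 170 and 75.2 FPKM, rising by 2.23 (SE 0.05) in Differentiated and 1.12 (SE 0.11; 0.96 and under 2-fold without Lysfree 1) in Lysfree cells over Undifferentiated cells and differing by -1.12 (SE 0.10) between Lysfree and Differentiated cells. Amt, the aminomethyltransferase of glycine cleavage, fell in Lysfree vs. Undifferentiated (-1.15, SE 0.18).

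In the methionine cycle, Mat2a, which makes S-adenosylmethionine, had 65.2, 127 and 109 FPKM, with log2 fold changes of 0.94 (SE 0.05) and 0.79 (SE 0.10) over Undifferentiated cells, under 2-fold. Ahcyl2 (1.37, SE 0.07) was the DEG of this list in Differentiated cells and Mtrr, the reductase that keeps methionine synthase active (1.32, SE 0.12), in Lysfree cells, both over Undifferentiated cells. Whether the Ahcyl2 protein carries out a step of the cycle was not tested. Cbs, the first enzyme of transsulfuration, had no count in any library. Cth, the second, had 8.91 FPKM in Undifferentiated, 53.3 in Differentiated and 44.5 in Lysfree cells and rose by 2.55 (SE 0.07) and 2.37 (SE 0.11). Srr, the serine racemase, fell in Lysfree cells by -1.89 (SE 0.17) over Undifferentiated and -1.39 (SE 0.17) over Differentiated cells. It shares 1240 exonic bases, 27.2% of its length, with Tsr1 on the opposite strand. Tsr1 held 10056 counts in total against 1847 for Srr, and its part in the Srr values was not tested.

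Sfxn1, which carries serine into mitochondria, was 4.08 FPKM in Undifferentiated, 19.8 in Differentiated and 9.54 in Lysfree cells. It rose by 2.25 (SE 0.06) in Differentiated and 1.27 (SE 0.12) in Lysfree cells over Undifferentiated cells, and the difference of -0.99 (SE 0.11) in Lysfree vs. Differentiated lay just under 2-fold. It passed 2-fold without Lysfree 1 (-1.17) or without Differentiated 3 (-1.01). Its paralog Sfxn2 fell in Lysfree cells (-1.31, SE 0.22, over Undifferentiated and -1.47, SE 0.21, over Differentiated cells). The glycine transporter Slc6a9 rose most of this list in Lysfree vs. Undifferentiated (1.34, SE 0.11). The neutral amino acid transporter Slc38a1 had the largest fall in Differentiated vs. Undifferentiated (-2.11, SE 0.26) and the largest rise in Lysfree vs. Differentiated (3.43, SE 0.22), at mean levels of 0.257, 0.0606 and 0.626 FPKM and with 15 to 20 counts in each Differentiated library.

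**Figure D4:**
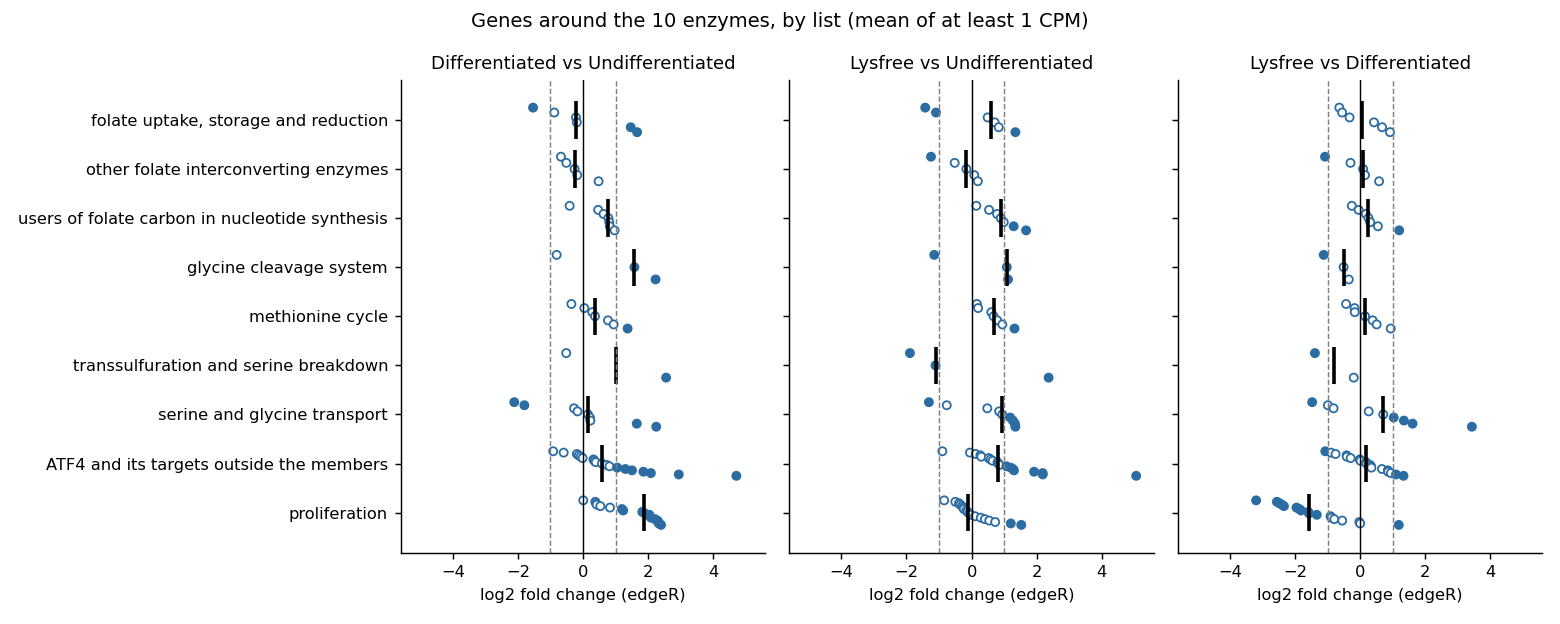
Log2 fold change from edgeR (horizontal axes) in the 3 comparisons for genes with a mean of at least 1 CPM in the lists of the pathway, for ATF4 and its targets, and for proliferation genes. Each point is a gene, filled where it was a DEG, black bars are list medians and dashed lines mark 2-fold. Proliferation genes have a median of 1.86 in Differentiated vs. Undifferentiated and -1.58 in Lysfree vs. Differentiated.

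ATF4 and 18 of its known targets outside the 10 enzymes were examined in the same way. As DEGs, 7 of the 19 rose in Differentiated vs. Undifferentiated and 8 in Lysfree vs. Undifferentiated, against 10.4% and 5.52% of all genes. None was a DEG that fell. A further 10 and 8 had an adjusted p under 0.05 in edgeR without reaching 2-fold, and these moved in both directions. Among them, Atf5 was lower in both comparisons (-0.92, SE 0.05, and -0.90, SE 0.13) and Ddit3 in the first (-0.59, SE 0.06). Atf5 became a lower DEG in Lysfree vs. Undifferentiated without Lysfree 2 or without Lysfree 3. In Lysfree vs. Differentiated, 2 were higher and 1 was lower as DEGs, where 8.14% of all genes were higher and 10.5% lower. Atf4 mRNA had 237, 307 and 221 FPKM, with 0.35 (SE 0.05) in Differentiated vs. Undifferentiated, -0.05 (SE 0.11) in Lysfree vs. Undifferentiated and -0.41 (SE 0.11) in Lysfree vs. Differentiated, and it was no DEG. Asns, the asparagine synthetase, had 68.4, 172 and 163 FPKM and rose by 1.30 (SE 0.05) and 1.30 (SE 0.10) over Undifferentiated cells, while Lysfree and Differentiated cells overlapped (-0.01, SE 0.09). Atf3 rose most in both comparisons with Undifferentiated cells (4.71, SE 0.12, and 5.06, SE 0.17). In Lysfree vs. Differentiated, Slc3a2, the heavy chain of several amino acid exchangers, rose most (1.33, SE 0.10). The stress-response gene Nupr1 was the 1 DEG that fell (-1.07, SE 0.20), a call that was lost without Lysfree 1 (-0.77).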

How the data were processed

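Poly A RNA of 9 libraries was sequenced. Per the submitters' processing notes, reads were mapped to mm10 (GRCm38) with HISAT2 2.0.5 and counted with featureCounts 1.5.0-p3. The strand setting and the annotation were not given in the sources used here. The authors deposited raw counts per gene, and FPKM for the same genes, which equalled the count divided by length and total within each library up to a constant. Levels are the deposited FPKM. The quasi-likelihood test of edgeR 4.0.16 in R 4.3.3 (TMM scaling, functions glmQLFit and glmQLFTest) was run on counts, with adjustment by Benjamini-Hochberg over all genes tested, for the 6 libraries of each comparison and genes above 0 counts in any of them. DEGs had an adjusted p under 0.05 and at least 2-fold change, and SE is the size of the log2 fold change divided by the root of F. CPM are counts scaled to library size after TMM. The medians of all genes shifted by under 0.1 between scalings. In Differentiated vs. Undifferentiated the fitted spread between libraries of a group was small, so adjusted p-values are extreme. The SE comes from the same fit and is small for the same reason.

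The members and all gene lists were chosen with earlier results of these data known. Named genes were all members, 12 companions named in every case (2 of them are not reported here), the largest rise and fall among DEGs of at least 1 CPM in each list and comparison, and the 5 genes nearest to each of 6 members. Alternatives were DESeq2 1.42.0, limma 3.58.1 on log2(FPKM + 1) and log2(FPKM + 0.1), other scalings and filters, a joint fit, a replicate block and leaving out each library. The scripts were tested on simulated data. Counts of 0 were read against a floor of 3 counts per library. A comparison of protein sequences was not made here.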

Additional observations from a re-analysis of the deposited data

How the results depend on the processing

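Leaving out each library in turn gave 7 to 8 enzymes called in Differentiated vs. Undifferentiated, 7 in Lysfree vs. Undifferentiated and 3 in Lysfree vs. Differentiated. Without a fold threshold, 7 rather than 3 were called in the last comparison. Phgdh in Lysfree vs. Differentiated was -0.0349 and turned to 0.0399 with library sizes alone; leaving out single libraries gave -0.0896 to 0.0375, the highest without Lysfree 1. Without a fold threshold 11260, 8428 and 9280 of all genes were called in the 3 comparisons in the order above, against 5329, 3426 and 4507. The counts were 3488, 2244 and 2891 for genes with at least 10 counts in every library and 2726, 1474 and 2198 with limma on log2(FPKM + 1). A test against a 2-fold change gave 1596 in Lysfree vs. Undifferentiated and 2657 in Lysfree vs. Differentiated. The companion genes called fell from 19 to 8 under that test and to 12 with limma on log2(FPKM + 1) in Lysfree vs. Undifferentiated, and from 9 to 4 with limma in Lysfree vs. Differentiated, and without a fold threshold they were 37, 35 and 24. These last counts, and the calls of companion and marker genes with single libraries left out, were chosen after seeing the data.

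The log2 ratio of the arms differed by 0.02 to 0.08, 0.84 to 0.89 and 0.79 to 0.85 when 1 library was left out. Without Aldh1l1 and Aldh1l2 it differed by 0.42, 0.93 and 0.51, for the mean of log2(FPKM + 0.1) by -0.46, 1.55 and 2.01, and with CPM by -0.19 in Differentiated vs. Undifferentiated and 1.01 in Lysfree vs. Differentiated. The cause of these shifts was not tested. Aldh1l1 fell under the 2-fold threshold with limma on log2(FPKM + 1) in each comparison, where the pseudocount exceeds its level.

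Equal replicate numbers did not pair the libraries, as deviations of same-numbered libraries correlated by at most 0.086 in size. With the replicate block, 7, 7 and 3 enzymes were called and 4837, 3179 and 4173 of all genes. The block changed no call of an enzyme. Over all alternatives, 487 values of single enzymes kept their direction and side of the threshold, 11 gained a call and 6 lost one. Shallow counts limit the precision of Aldh1l1 most, and among the other genes named that of Gldc, Slc38a1, Slc46a1 and Phgdh-ps1.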
